A study of Drosophila melanogaster with 72 samples.

Results

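Transcripts of 8 genes of apoptosis and of the p53 pathway were followed in 72 RNA-seq libraries of Drosophila melanogaster. The genes were the death inducers rpr, W (the gene also called hid), grim and skl, the apoptosome gene Ark (also called Dark), the transcription factor genes p53 and Xrp1, and egr, which encodes the TNF ligand Eiger. They were taken by name as 8 of the 16680 genes listed for every library, and all 8 were present in each. The libraries formed 36 groups of 2 in 6 experiments.

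In 3 of the experiments, embryos aged 0 to 0.5, 1 to 1.5 and 2.5 to 3 h were collected as wild type and as mutants with mislocalized IntS11, with mislocalized IntS9, or with an IntS11 knockdown (KD). IntS11 is the endonuclease of the Integrator complex, which cleaves nascent RNA, and IntS9 is the partner subunit that binds it. In the fourth experiment embryos aged 1 to 1.5 and 2.5 to 3 h were given alpha-amanitin, a toxin that blocks RNA polymerase II, or served as controls. The rescue experiment held wild type, mislocalized IntS11, Flag-tagged IntS11 WT and Flag-tagged IntS11 E203Q, a substitution in the catalytic centre, at 1 to 1.5 and 2.5 to 3 h. Larvae labelled wild type or zygotic mutant were taken at 24, 48 and 72 h after egg laying. The labels give neither the gene mutated in the larvae, nor the alleles that mislocalize IntS11 or IntS9, nor the driver or RNAi line of the knockdown, nor the promoter and background of the Flag lines, nor the dose and route of alpha-amanitin. They do not say how many animals were pooled or whether replicates were separate collections, so p-values measure the spread between these libraries, which may be technical.

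In flies, cell death is set off mainly by the transcription of rpr, hid, grim and skl, whose proteins share a short amino-terminal motif that binds the inhibitor Diap1 and so frees caspases. Ark then assembles the platform that activates the initiator caspase Dronc. p53 and Xrp1 act upstream as stress-responsive transcription factors, p53 after DNA damage and Xrp1 in genotoxic, translational and cell competition stress, and Eiger signals through its receptors to the kinase JNK. The early embryo lives on RNA that the mother deposited, and zygotic transcription takes over gradually in the first hours.

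The 4 inducer genes lie in 1 cluster on chromosome arm 3L, all on the minus strand of the dm6 build. W occupies 18167745 to 18185641, grim 18302719 to 18304417, rpr 18397535 to 18398435 and skl 18438561 to 18439942, so that the gaps from W to grim, grim to rpr and rpr to skl are 117.1, 93.1 and 40.1 kb. p53 (3R, 23049657 to 23054082, minus strand) and Xrp1 (3R, 18914968 to 18926989, plus strand) lie on another arm, and Ark and egr on arm 2R. The annotation places 17 genes between and including W and skl. Of these 10 were listed in the files, and 4 were protein-coding genes that are not death inducers. Antisense transcripts overlap grim, p53 and Ark, and the chemoreceptor gene Gr94a lies within p53. The library kit keeps the strand, but no source used here says that reads were counted by strand, so reads of such partners cannot be told apart. Small RNA genes (snoRNA and scaRNA) lie within the bounds of egr, and their part in its counts was not tested.

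The authors' expected counts were scaled here for the depth of each library (CPM) and tested with edgeR's quasi-likelihood test. A gene is described as called where its p-value, adjusted by Benjamini and Hochberg over all genes tested in the comparison, was below 0.05. Library totals ran from 2061575 to 26074431 counts. The labelled stages carried their markers. Early zygotic markers (6 genes) summed to between 2030 and 3590 CPM in wild type and control embryos at 2.5 to 3 h, and larval feeding markers (8 genes) to between 1020 and 3980 CPM in wild type larvae. IntS11 RNA fell in the knockdown by 3.84, 4.07 and 2.76 on the log2 scale over the successive windows. It also fell in zygotic mutant larvae, by 1.63, 1.37 and 2.15 at 24, 48 and 72 h. Some libraries held RNA of markers of other stages or tissues, and its source was not tested. In knockdown embryos larval feeding markers summed to between 253 and 879 CPM in all windows, led by Lsp2, and hemocyte markers (5 genes) to between 97.0 and 149 CPM, led by Hml. In embryos with mislocalized IntS9 the hemocyte sum was 56.4 to 77.2 CPM, almost all of it Hml, with eater at 0 in each window. The knockdown set's wild type at 2.5 to 3 h summed to 1830 to 1870 CPM over 12 markers of older embryos, against 222 to 398 CPM in the other wild type and control groups of that window. Eggshell and yolk markers (12 genes) reached 73.9 to 77.5 CPM in mislocalized embryos of the rescue set at 2.5 to 3 h. In larvae at 24 h they reached 1740 to 1840 CPM in wild type and 1220 to 1350 CPM in mutants. The part of these in the results below was not tested. In whole embryos and larvae, fewer cells of a type and less RNA per cell cannot be told apart.

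Wild type embryos began with p53 and Ark RNA and with almost no RNA of the death inducers, and by 2.5 to 3 h egr had become the most abundant of the 8. Levels of different genes are compared per transcript length, as the deposited TPM, which the authors scaled for length and depth. At 0 to 0.5 h p53 stood at 15.9 to 21.9 TPM over the 6 wild type libraries, Ark at 8.36 to 13.4 TPM and egr at 1.15 to 6.23 TPM. The 4 inducers were each below all 3, and their order differed between sets. Xrp1 lay below egr in the IntS11 and IntS9 sets and overlapped it in the knockdown set, at 1.14 to 1.66 TPM against 1.15 to 2.16 TPM. By 2.5 to 3 h egr stood at 31.2 to 69.0 TPM over the 10 wild type and control libraries, Ark at 13.1 to 21.6 TPM and p53 at 8.44 to 15.6 TPM. Ark lay above p53 in each set except that of the knockdown, where their libraries overlapped.

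egr rose with age in all 5 sets. Its level went from 13.4 and 16.7 CPM to 162 and 167 CPM between 1 to 1.5 and 2.5 to 3 h in the wild type of the IntS11 set, a log2 change of 3.46 ± 0.11 (SE, n = 2 libraries per group). The libraries of the later window lay far above those of the earlier one in all 5 sets, and the other 4 changes were 3.88 ± 0.07, 3.65 ± 0.26, 5.38 ± 0.10 and 3.57 ± 0.07 in the IntS9, knockdown, amanitin and rescue sets. Ark rose over the same step by 1.31, 1.08, 0.64, 1.23 and 0.72 in the same order of sets. p53 moved the other way: it fell by 0.82 ± 0.11, 0.44 ± 0.08 and 0.53 ± 0.08 in the IntS11, IntS9 and rescue sets. In the knockdown and amanitin sets p53 changed by -0.27 ± 0.18 and -0.18 ± 0.08 and was not called (adjusted p = 0.196 and 0.051). The amanitin controls were called lower with total counts as the library size (-0.34, adjusted p = 0.00128), without the filter on low counts (-0.25, adjusted p = 0.015), when only those groups were fitted (-0.32, adjusted p = 0.0172), and without either first replicate (-0.26 in both, adjusted p = 0.0308 and 0.0166).

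The inducers rose in the same step. W, the longest of them, went from 3.94 and 4.70 CPM to 19.7 and 20.1 CPM in the IntS11 set (2.21 ± 0.15), and rose by between 1.11 ± 0.16 (rescue) and 2.59 ± 0.44 (knockdown) in the other sets. rpr rose by 2.16 ± 0.29, 1.68 ± 0.30, 4.30 ± 0.55 and 2.94 ± 0.33 in the IntS11, IntS9, amanitin and rescue sets. The value in the amanitin controls was 3.68 without the second 2.5 to 3 h replicate. In the knockdown set rpr had 14 counts in the later window and 1 in the earlier, a count ratio of 15.4 (exact 95% interval 2.34 to 649, counting error only). skl rose by 1.05 ± 0.31 and 1.53 ± 0.26 in the IntS11 and IntS9 sets, and the first of these was not called without the second 2.5 to 3 h replicate (0.81, adjusted p = 0.0683). It rose by 3.68 ± 0.39 in the rescue set, or 4.96 without the second 1 to 1.5 h replicate, and the knockdown set held 30 counts against 3, a ratio of 11 (3.41 to 56.2). In the amanitin controls skl had 73 counts at 2.5 to 3 h and 0 at 1 to 1.5 h, at least 31.3-fold more, set against 3 counts over the earlier group. grim remained the rarest inducer, at 0.301 to 1.62 CPM at 2.5 to 3 h, and passed the filter on low counts in the rescue experiment alone. There it had 10 counts against 1, a ratio of 9.33 (1.33 to 405), and its call (adjusted p = 0.0187) was lost without the first 1 to 1.5 h or the second 2.5 to 3 h replicate (adjusted p = 0.0991 and 0.081).

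Xrp1 rose by 1.64 ± 0.28, 1.43 ± 0.21 and 1.35 ± 0.19 in the IntS11, amanitin and rescue sets over this step. Its rise of 0.41 ± 0.19 in the IntS9 set (adjusted p = 0.0466) was lost without any one of the 4 libraries (adjusted p = 0.0945 to 0.202), and the 3.29 ± 0.26 of the knockdown set came from the wild type libraries rich in markers of older embryos. Of the members tested, 7 of 7 were called in the IntS11 set (81.1% of all genes), 7 of 7 in the IntS9 set (81.4%), 6 of 7 in the knockdown set (73.3%, and 40.8% higher), 6 of 7 in the amanitin controls (90.5%, and 50.5% higher) and 8 of 8 in the rescue set (84.9%). These shares are near those of all genes. Their median changes were 1.64, 1.53, 3.29, 2.55 and 2.15, where the medians over all genes were 0.11, 0.05, 0.17, 0.27 and 0.05.

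Fewer members were called in the step from 0 to 0.5 to 1 to 1.5 h. In the IntS11 set 3 of 7 members were called, all higher, namely skl, egr and p53 (32.3% of all genes were called, 15.5% higher), with skl at 0.150 and 0.236 CPM and then at 1.11 and 1.28 CPM (2.58 ± 0.52). egr rose by 1.23 ± 0.14. The p53 rise of 0.40 ± 0.10 was lost with DESeq2 (adjusted p = 0.0716) and without the first replicate of either window (adjusted p = 0.0522 and 0.0681). In the IntS9 set 3 of 7 were called, all higher, namely skl, W and rpr (41.2% of all genes were called, 16.2% higher), by 2.20 ± 0.47, 1.67 ± 0.22 and 1.33 ± 0.47. For skl these early rises were larger than the later ones of 1.05 and 1.53, a difference that was not tested. The skl value in the IntS9 set was 2.99 without the second 0 to 0.5 h replicate, and the call of rpr was lost with DESeq2 (adjusted p = 0.153) and without any of 3 of its 4 libraries (adjusted p = 0.0813 to 0.273). No member was called in the knockdown set (0 of 7, against 1.68%), where 0 members had an unadjusted p below 0.05 and DESeq2 called 0. The share of higher calls among all genes at this step moved from 47.9% to 24.6% with RLE size factors in the IntS11 set, from 39.3% to 49.96% with total counts in the IntS9 set, and from 56.4% to 66.4% with RLE size factors in the knockdown set.

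**Figure D1:**
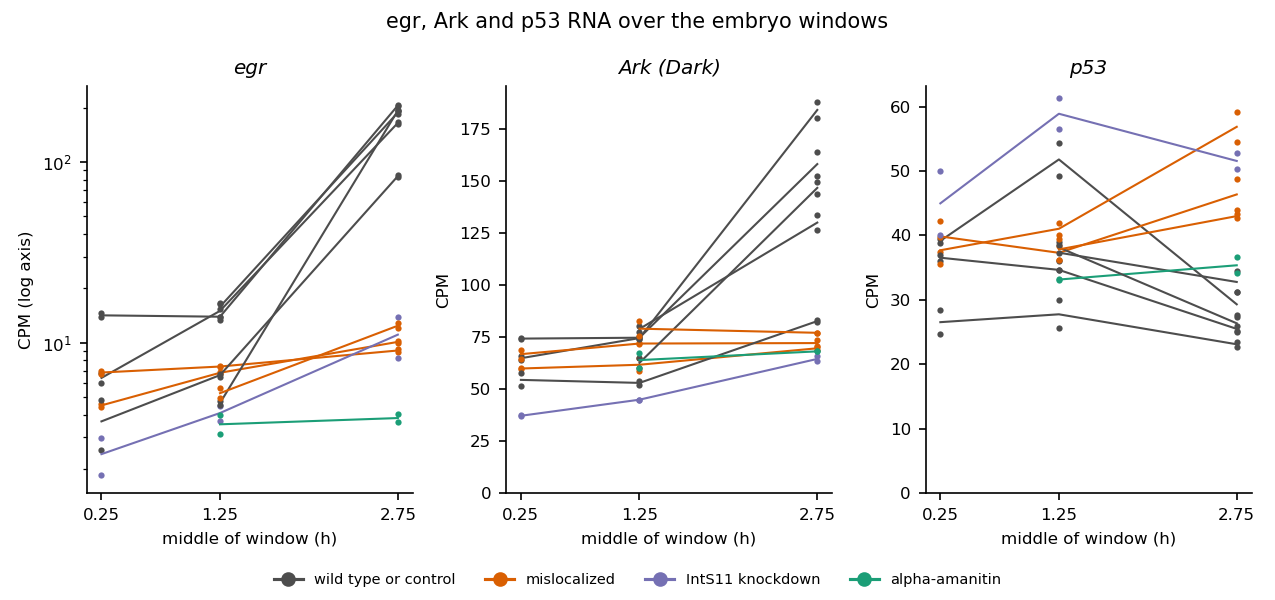
Levels of egr, Ark and p53 in embryos, in CPM (egr on a log axis), against the middle of the collection window in hours, with dots for libraries and lines through group means, coloured by condition. In wild type and controls egr and Ark climb at 2.5 to 3 h, egr reaching 161.8 and 167.4 CPM in the IntS11 set, whereas in mislocalized embryos of that set egr stays at 10.03 and 10.19 CPM.

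When IntS11 or IntS9 was mislocalized, skl was the inducer that rose, in every window, while W rose early, and rpr was not called higher in any window. At 0 to 0.5 h skl stood at 0.150 and 0.236 CPM in wild type and at 4.60 and 3.14 CPM with mislocalized IntS11, 19.4-fold higher. With mislocalized IntS9 it stood at 22.5 and 24.5 CPM, against 0.114 and 0.2997 CPM in the wild type of that set, 111-fold higher. The groups did not overlap in either set, and the wild type arms rested on 5 and 7 counts. Without the second wild type replicate the IntS9 change was 7.59 on the log2 scale.

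skl remained high as the embryos aged. In the last window it was at 14.3 and 16.1 CPM with mislocalized IntS11 and at 2.12 and 2.81 CPM in wild type (6.13-fold, log2 2.62 ± 0.20). With mislocalized IntS9 it reached 42.8 and 45.1 CPM, against 3.24 and 2.31 CPM (15.7-fold, log2 3.97 ± 0.14). At that window skl was, per length, level with p53 in IntS9 embryos, at 21.1 and 27.1 TPM against 24.7 and 27.7 TPM, whereas in wild type it was at 1.53 and 1.11 TPM. skl made up 79.5% to 80.3% of the summed TPM of the 4 inducers in IntS9 embryos at 0 to 0.5 h and 78.2% to 81.8% at 2.5 to 3 h. With mislocalized IntS11 the share was 55.5% to 63.0% and 60.7% to 61.2%, and in wild type and control embryos at 2.5 to 3 h it was 9.01% to 33.5%.

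W rose in the first windows. With mislocalized IntS9 it went from 3.14 and 3.36 CPM to 13.9 and 14.5 CPM at 0 to 0.5 h (2.13 ± 0.20) and was higher at 1 to 1.5 h (0.68 ± 0.17, adjusted p = 0.00216). With mislocalized IntS11 it was not called at 0 to 0.5 h (0.44 ± 0.19, adjusted p = 0.0854) and rose from 3.94 and 4.70 CPM to 9.72 and 9.75 CPM at 1 to 1.5 h (1.17 ± 0.16). By 2.5 to 3 h the wild type had caught up. In the IntS9 set W was at 32.0 and 33.7 CPM in wild type and at 23.4 and 34.7 CPM in mutants, which overlap (-0.17 ± 0.14, adjusted p = 0.271). It was called lower there with RLE size factors (-0.32, adjusted p = 0.0428) and without the second mutant replicate (-0.45, adjusted p = 0.000521). In the IntS11 set the call of lower W (-0.43 ± 0.12, adjusted p = 0.00511) was lost with total counts (-0.07, adjusted p = 0.624), no filter (-0.13, adjusted p = 0.478), only the groups compared (-0.09, adjusted p = 0.528), DESeq2 (-0.35, adjusted p = 0.13) and without the first mutant replicate (-0.29, adjusted p = 0.0912). In deposited TPM the direction was the opposite, with mutants at 2.89 to 3.67 TPM and wild type at 1.99 to 2.39 TPM.

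rpr, the first of these inducers to be described, was not called at the early windows and lagged at the last. At 0 to 0.5 and 1 to 1.5 h its libraries lay between 0.151 and 1.21 CPM in both sets, and none of the 4 comparisons was called (adjusted p = 0.117 to 0.921). By 2.5 to 3 h rpr was at 2.13 and 2.07 CPM with mislocalized IntS11 and at 4.05 and 3.90 CPM in wild type (-0.92 ± 0.24, adjusted p = 0.00202). DESeq2 did not call that difference (-0.84, adjusted p = 0.139). With mislocalized IntS9 rpr was at 0.282 and 0.185 CPM, against 3.8 and 2.38 CPM in wild type, 13.1-fold lower (-3.72 ± 0.42). grim had 0 counts with mislocalized IntS9 at 1 to 1.5 and 2.5 to 3 h, where the wild type had 7 and 15, so that it was at least 2.84-fold and 4.94-fold lower, set against 3 counts over the group. With mislocalized IntS11 grim had 18 counts at 2.5 to 3 h and the wild type 16, in overlapping libraries.

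**Figure D2:**
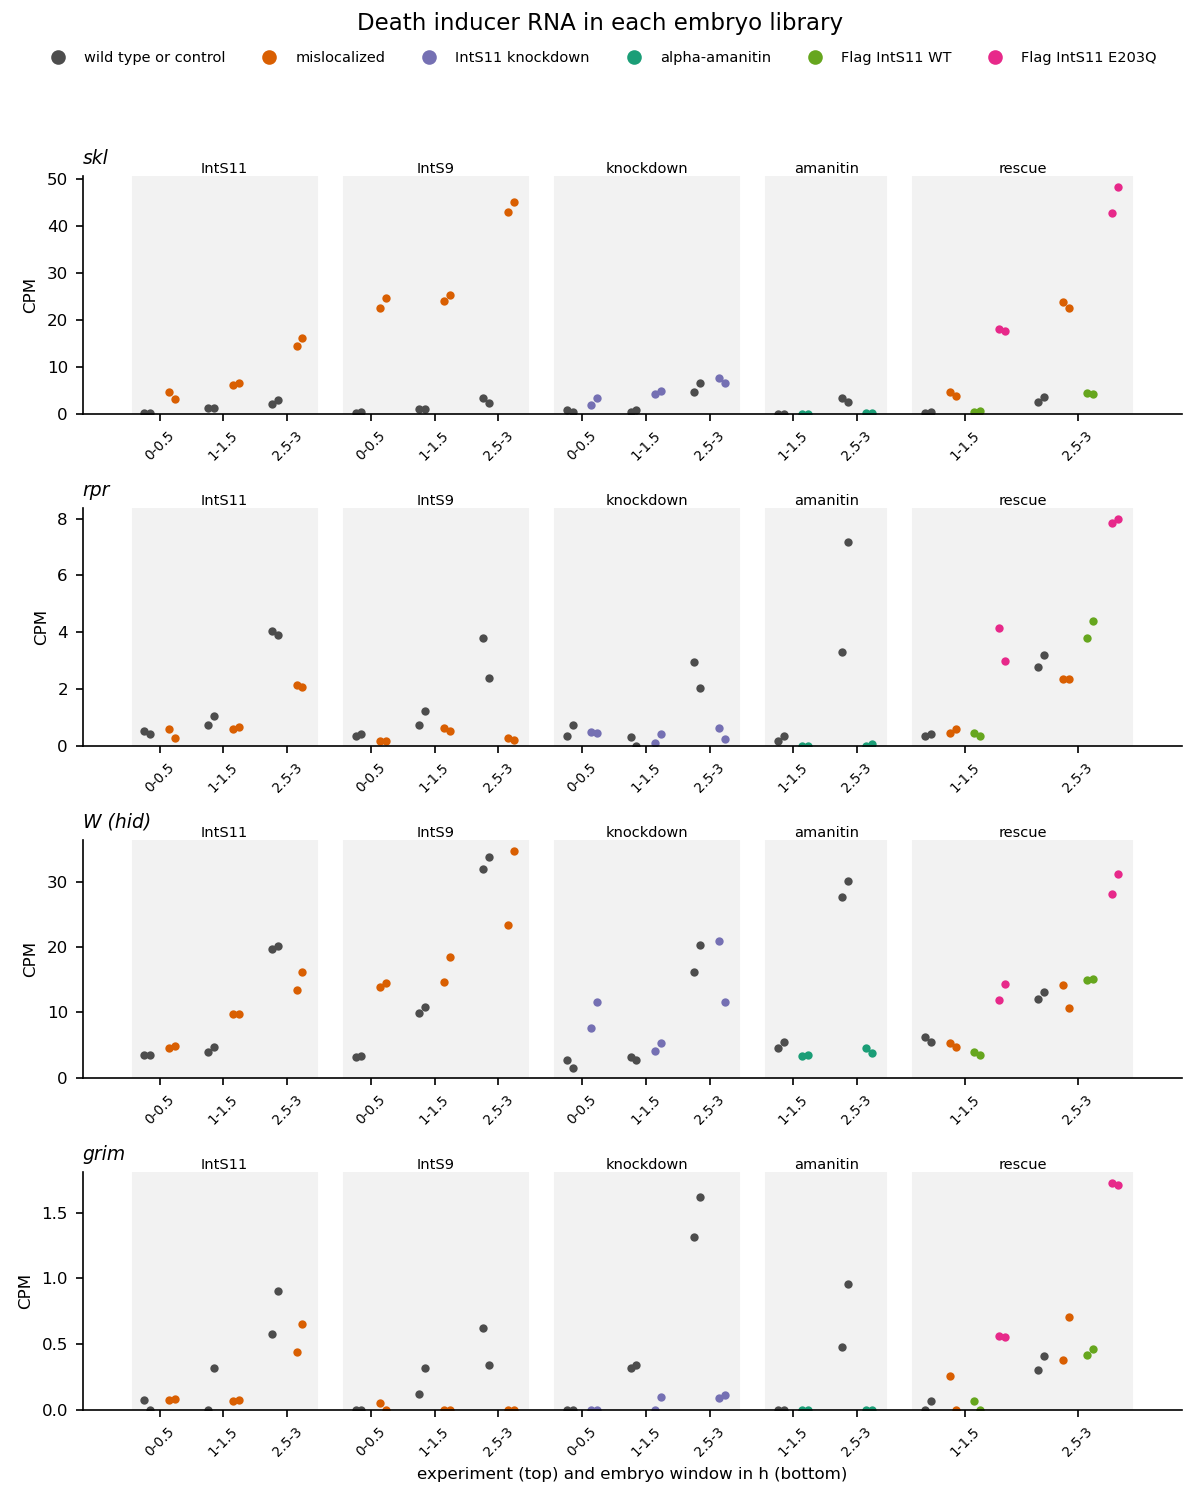
Levels of skl, rpr, W and grim in CPM in each embryo library, with panels by experiment and collection window and dots coloured by condition. skl stands apart from wild type in mislocalized embryos of all windows, reaching 42.84 and 45.1 CPM in the IntS9 set at 2.5 to 3 h, while rpr and grim lie below wild type in that group.

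The 2 lines differed from each other in the size of these changes. Over joint fits of both sets, the skl change was larger with mislocalized IntS9 by 2.30 at 1 to 1.5 h (adjusted p = 5.32e-05) and by 1.15 at 2.5 to 3 h (adjusted p = 0.00211) on the log2 scale. The W change was larger by 1.70 at 0 to 0.5 h (adjusted p = 0.000277), and the rpr change was lower, with a difference of -3.0 at 2.5 to 3 h (adjusted p = 3.5e-05). In all, 4, 3 and 5 of the 8 members differed between the lines over the successive windows, against 16.1%, 37.3% and 32.6% of all genes. The sets have separate wild types and may differ in other ways, so line and set cannot be told apart.

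Ark did not reach the wild type level at 2.5 to 3 h. With mislocalized IntS11 it stood at 68.9 and 64.8 CPM at 0 to 0.5 h, at 72.2 and 71.7 CPM at 1 to 1.5 h and at 73.9 and 70.5 CPM at 2.5 to 3 h, where the wild type reached 188 and 180 CPM (-1.35 ± 0.08). The first 2 windows were not called (adjusted p = 0.718 and 0.61). With mislocalized IntS9 Ark was lower in all 3, with log2 changes of -0.31 ± 0.06, -0.27 ± 0.06 and -1.18 ± 0.06. Its mutant libraries there went from 59.5 and 60.4 CPM in the first window to 68.7 and 70.7 CPM in the last, and change with age within mutants was not tested. p53 moved in the opposite direction at 2.5 to 3 h. It was at 48.7 and 44.0 CPM with mislocalized IntS11 and 31.2 and 27.4 CPM in wild type (0.66 ± 0.11), and at 59.2 and 54.5 CPM with mislocalized IntS9 and 25.9 and 25.1 CPM in wild type (1.16 ± 0.08). Summed RNA of 6 maternal germline genes moved the same way at that window, at 2950 to 3270 CPM and 3580 to 4110 CPM in the respective mutants and at 329 to 873 CPM over all wild type and control libraries, and its part in the p53 difference was not tested.

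p53 was not called at 0 to 0.5 h in either set (0.02 ± 0.10 and 0.05 ± 0.07, adjusted p = 0.901 and 0.629). At 1 to 1.5 h it was lower with mislocalized IntS11 (-0.47 ± 0.10), although its deposited TPM overlapped there, at 19.8 to 21.1 against 19.98 to 21.5 in wild type, and slightly higher with mislocalized IntS9 (0.25 ± 0.07, adjusted p = 0.0083). The second of these was lost with DESeq2 (0.20, adjusted p = 0.105) and without the second mutant replicate (0.21, adjusted p = 0.0681). The difference between the lines was 0.73 (adjusted p = 5.66e-05). Ark differed between the lines by -0.34 at 0 to 0.5 h (adjusted p = 0.0129).

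Xrp1 rose with mislocalized IntS11 in all windows. It went from 0.901 and 1.18 CPM to 2.87 and 2.71 CPM at 0 to 0.5 h (1.42 ± 0.32), and from 1.34 and 1.75 CPM to 5.08 and 4.95 CPM at 1 to 1.5 h (1.70 ± 0.26). At 2.5 to 3 h the rise was 0.63 ± 0.21 (adjusted p = 0.00999), which was lost with DESeq2 (0.71, adjusted p = 0.064), without the first wild type replicate (0.43, adjusted p = 0.123) and without the second mutant replicate (0.38, adjusted p = 0.162). With mislocalized IntS9 Xrp1 was called at 1 to 1.5 h (0.78 ± 0.17, adjusted p = 0.000654) but not at 0 to 0.5 h (0.33 ± 0.18, adjusted p = 0.134) or 2.5 to 3 h (-0.02 ± 0.18, adjusted p = 0.942). The Xrp1 level in the wild type of that set was already 3.48 and 3.24 CPM at 0 to 0.5 h, above the 0.901 and 1.18 CPM of the IntS11 set. Feeding larva markers, led by Lsp1beta, summed to 58.4 to 63.5 CPM in that wild type group and to 23.1 to 24.9 CPM in its mutants, and were at 0 in the wild type of the IntS11 set. At 1 to 1.5 h the wild type of the IntS9 set held 0 to 0.244 CPM of these markers and 3.39 CPM of Xrp1 on average. The knockdown set's wild type at 0 to 0.5 h held 0.729 to 3.77 CPM of the markers and 4.22 CPM of Xrp1 on average. The part of the markers in the Xrp1 values was not tested.

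egr, the TNF ligand, fell short of wild type from the start. With mislocalized IntS9 it was at 6.70 and 6.99 CPM at 0 to 0.5 h, against 13.8 and 14.6 CPM (-1.05 ± 0.10), and at 2.62 and 3.3 TPM at 2.5 to 3 h, against 58.6 and 58.1 TPM (22.7-fold lower on the CPM scale, -4.50 ± 0.08). With mislocalized IntS11 it was 16.3-fold lower at 2.5 to 3 h (-4.02 ± 0.11) and lower at 1 to 1.5 h (-1.13 ± 0.13). At 0 to 0.5 h its change of -0.50 ± 0.17 (adjusted p = 0.0314) was lost when only those groups were fitted (adjusted p = 0.088) and without the second wild type or either mutant replicate (adjusted p = 0.187, 0.0522 and 0.0914). Early zygotic markers moved with it: at 2.5 to 3 h they summed to 154 to 158 CPM with mislocalized IntS11 and to 1.54 to 2.48 CPM in all windows with mislocalized IntS9, and their part in the egr difference was not tested.

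With mislocalized IntS11 the tested members called numbered 3 of 7, 5 of 7 and 7 of 7 over the windows, against 31.7%, 47.3% and 83.3% of all genes. With mislocalized IntS9 they numbered 4 of 7, 6 of 7 and 5 of 7, against 52.6%, 59.4% and 83.4%. Called members went both ways in each window, and their median changes lay between -0.43 and 0.25, with -0.38 to 0.00 over all genes. Over all 30 comparisons, 6 of the 141 calls of members went the other way in mean deposited TPM, namely W at 2.5 to 3 h with mislocalized IntS11 and 5 calls of p53 and Xrp1 in the knockdown. The 7 calls at 2.5 to 3 h with mislocalized IntS11 were 4 with DESeq2. With total counts that comparison's median over all genes shifted by 0.36 and the share of higher calls from 36.2% to 49.4%.

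**Figure D3:**
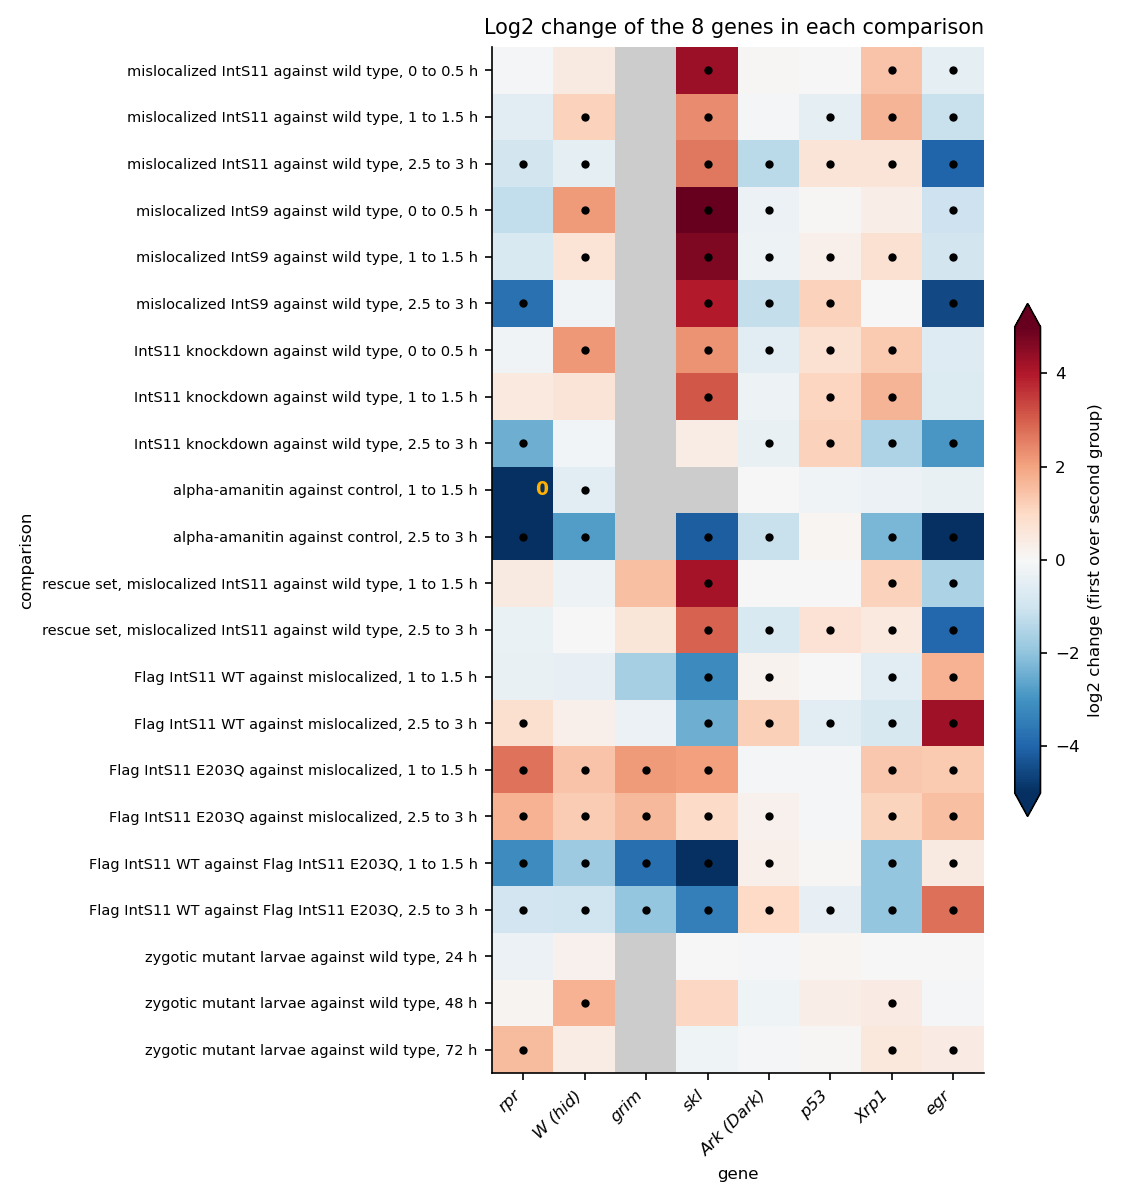
Log2 change of each of the 8 genes in the 22 comparisons between conditions, as colour from -5 to 5, with a black dot where a gene was called and grey where it was not tested or had 0 counts in both arms; a yellow 0 marks 0 counts in one arm. The skl column is higher with mislocalized IntS11, with Flag IntS11 E203Q and with mislocalized IntS9, where it reaches 6.79 at 0 to 0.5 h, and the egr column is lower at 2.5 to 3 h in mislocalized, knockdown and amanitin embryos.

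In knockdown embryos skl was higher at 1 to 1.5 h and egr and rpr were lower at 2.5 to 3 h, on every scale used. W, p53 and Xrp1 were also called higher early in CPM, but their deposited TPM overlapped or went the other way. In this set 7SL RNA (2 genes) took 61.6% to 71.2% of the TPM in knockdown libraries and 35.3% to 42.3% in wild type, and the part of this in the TPM values was not tested. The wild type libraries of this set were the shallowest, with at most 2590455 counts, so that low genes rest on few reads. The larval and hemocyte markers given above were high in all knockdown windows beside each value that follows. skl was at 1.86 and 3.29 CPM at 0 to 0.5 h, against 0.685 and 0.364 CPM, and at 4.08 and 4.76 CPM at 1 to 1.5 h, against 0.322 and 0.683 CPM. The wild type arms held 3 counts each, and the count ratios were 4.94 (exact 95% interval 1.59 to 24.9) and 8.87 (2.94 to 43.8). The groups did not overlap in CPM, but in TPM they did at 0 to 0.5 h (0.310 to 0.630 against 0.270 to 0.510), and the call at that window (adjusted p = 0.00541) was lost with total counts (1.65, adjusted p = 0.0579) and without the second wild type replicate (1.94, adjusted p = 0.054). The fitted change of 3.10 ± 0.59 at 1 to 1.5 h became 3.74 without the second wild type replicate. In the last window skl did not pass the test (0.38 ± 0.32, adjusted p = 0.292), at 7.68 and 6.51 CPM against 4.61 and 6.48 CPM. In TPM skl was lower in the knockdown there, at 1.37 to 2.26 against 2.84 to 4.08, so its direction at that window depends on the scale.

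W was called higher at 0 to 0.5 h, from 2.74 and 1.46 CPM to 7.56 and 11.6 CPM (2.18 ± 0.48, or 1.56 with total counts). Its TPM overlapped there, at 0.520 to 0.970 against 0.490 to 0.760. In the knockdown the TPM of W was lower without overlap at 1 to 1.5 h (0.43 to 0.57 against 0.67 to 0.84). The same held at 2.5 to 3 h (0.95 to 2.48 against 3.5 to 5.15). W was not called at the other windows (0.65 ± 0.47 and -0.14 ± 0.28, adjusted p = 0.224 and 0.666). Without the first knockdown replicate it was called lower at 2.5 to 3 h (-0.67, adjusted p = 0.0276). rpr was at 0.640 and 0.221 CPM at 2.5 to 3 h, against 2.96 and 2.03 CPM (-2.45 ± 0.65, adjusted p = 0.00228), a call lost without the first wild type replicate (-2.11, adjusted p = 0.0699). grim had 2 counts there and 8 in the wild type, a ratio of 0.0688 (0.00712 to 0.345).

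p53 was called higher in CPM in all 3 windows, at 49.93 and 40.03 CPM, 61.3 and 56.5 CPM, and 50.3 and 52.8 CPM, against 22.7 to 29.9 CPM in the wild type libraries. The changes were 0.76 ± 0.15, 1.08 ± 0.15 and 1.16 ± 0.16, of which the first was lost with total counts (0.13, adjusted p = 0.459). In deposited TPM p53 was lower in the knockdown, at 6.43 to 6.92 against 15.9 to 19.5 at 0 to 0.5 h and at 10.6 to 11.7 against 18.4 to 22.4 at 1 to 1.5 h, and overlapped at 2.5 to 3 h (9.34 to 12.4 against 11.7 to 14.2). The direction of p53 in this set therefore depends on the scale. Ark changed by -0.55 ± 0.12 at 0 to 0.5 h, or -1.18 with total counts. Ark at 1 to 1.5 h changed by -0.24 ± 0.12 and was not called (adjusted p = 0.072), but was called with total counts (-0.69, adjusted p = 4.56e-05) and when only those groups were fitted (-0.28, adjusted p = 0.0101). Its change of -0.36 ± 0.11 at 2.5 to 3 h (adjusted p = 0.00617) was lost with no filter (-0.28, adjusted p = 0.0726) and without the first wild type replicate (-0.33, adjusted p = 0.0589). egr was called lower at 2.5 to 3 h only, at 13.9 and 8.27 CPM against 84.9 and 82.2 CPM (-2.90 ± 0.20). At the earlier windows egr was called lower with total counts (-1.25 and -1.15, adjusted p = 0.0429 and 0.0156), and at 1 to 1.5 h when only those groups were fitted (-0.74, adjusted p = 0.0184). Its TPM was lower in the knockdown at both, at 0.22 to 0.29 against 1.15 to 2.16 and at 0.49 to 0.61 against 3.11 to 3.45.

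Xrp1 was called higher in CPM, going from 4.79 and 3.64 CPM to 11.4 and 9.76 CPM at 0 to 0.5 h (1.31 ± 0.28, or 0.68 with total counts) and from 3.86 and 3.41 CPM to 11.2 and 12.3 CPM at 1 to 1.5 h (1.68 ± 0.27). Its TPM went the other way, at 0.750 to 0.780 against 1.14 to 1.66 and at 1.00 to 1.14 against 1.25 to 1.68. At 2.5 to 3 h Xrp1 was lower on both scales: knockdown embryos had 10.7 and 13.8 CPM and the wild type 36.5 and 34.8 CPM (-1.55 ± 0.18). Those wild type libraries were the ones with 1830 to 1870 CPM of older embryo markers, and Xrp1 stood at 4.05 to 8.88 CPM in the other wild type and control libraries of that window. Called members numbered 5 of 7, 3 of 7 and 5 of 7, against 69.1%, 72.7% and 75.7% of all genes. The 3 at 1 to 1.5 h were all higher, as were 41.7% of all genes. The medians were 0.76, 0.65 and -0.36, where all genes had 0.25, 0.26 and 0.07. The scaling mattered in this set. When library totals were used the median over all genes shifted by -0.62, -0.44 and -0.35, and the share of higher calls went from 57.1%, 57.4% and 52.4% to 35.3%, 41.5% and 40.02%. Of the members, 5 were called at 1 to 1.5 h with total counts and 5 when only those groups were fitted. With RLE size factors the median at 2.5 to 3 h moved by -0.30 and the share of higher calls to 41.7%.

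Alpha-amanitin lowered the inducers, egr, Ark and Xrp1 at 2.5 to 3 h while p53 was not called. egr was at 4.02 and 3.64 CPM, against 192 and 194 CPM in controls, 50.3-fold lower (-5.65 ± 0.10). W was at 4.51 and 3.79 CPM, against 27.7 and 30.1 CPM (-2.80 ± 0.14), and skl at 0.109 and 0.202 CPM, against 3.22 and 2.48 CPM (-4.14 ± 0.46). rpr had 1 count in treated embryos and 123 in controls, a ratio of 0.00533 (exact 95% interval 0.000134 to 0.0303). grim had 0 counts and 17, at least 8.64-fold lower. The treated and control libraries did not overlap for any of these 5 genes. Ark (-1.11 ± 0.07) and Xrp1 (-2.29 ± 0.23) were lower too. p53 was at 34.1 and 36.6 CPM in treated embryos and at 34.4 and 31.1 CPM in controls (0.11 ± 0.08, adjusted p = 0.232), and was called higher with total counts (0.21, adjusted p = 0.021). Ark in treated embryos, at 68.2 CPM in both libraries, was close to the 60.3 and 65.0 CPM of the controls at 1 to 1.5 h.

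At 1 to 1.5 h alpha-amanitin left 1 of 7 tested members called (33.5% of all genes), namely W, which was lower (-0.53 ± 0.17, adjusted p = 0.0274). That call was lost with DESeq2 (adjusted p = 0.171) and without either treated or the second control replicate (adjusted p = 0.14, 0.101 and 0.18). rpr had 0 counts in treated embryos and 8 in controls, at least 3.04-fold lower, with adjusted p = 0.074; without the filter, with the replicate number as a block and with DESeq2 it was called (adjusted p = 0.00303, 0.0219 and 0.0274). skl and grim had 0 counts in all 4 libraries. In the later window 6 of 7 were called, all lower (89.7% of all genes were called, 49.7% lower), with a median of -2.80 against -0.23 over all genes.

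In the rescue experiment Flag IntS11 WT brought skl, Xrp1, egr, Ark and p53 from the mislocalized levels in the direction of wild type, whereas with Flag IntS11 E203Q the 4 inducers and Xrp1 stood above the mislocalized line. Both Flag lines carried IntS11 RNA at 2019 to 2461 CPM on average, against 126 CPM in the mislocalized line at 1 to 1.5 h and 175 CPM at 2.5 to 3 h. This set repeated the comparison of mislocalized IntS11 with wild type in separate libraries. skl again rose, from 0.0886 and 0.337 CPM to 4.68 and 3.8 CPM at 1 to 1.5 h (4.16 ± 0.36, or 5.46 without the second wild type replicate) and from 2.48 and 3.54 CPM to 23.8 and 22.6 CPM at 2.5 to 3 h (2.93 ± 0.16). Xrp1 rose by 1.17 ± 0.19 and 0.50 ± 0.15, the second of which was lost with DESeq2 (0.34, adjusted p = 0.15). egr changed by -1.58 ± 0.11 and -3.92 ± 0.07, Ark by -0.75 ± 0.06 at 2.5 to 3 h and p53 by 0.71 ± 0.08. W, which had risen at 1 to 1.5 h in the first set, did not here (-0.24 ± 0.18, adjusted p = 0.26), and the difference between the sets in its change was -1.53 (adjusted p = 5.09e-05). Between the 2 sets, 4 of 8 members at 1 to 1.5 h and 2 of 8 at 2.5 to 3 h differed in their change, against 33.8% and 40.8% of all genes. rpr was not called in either window (0.44 ± 0.47 and -0.35 ± 0.21, adjusted p = 0.518 and 0.125), but was called lower at 2.5 to 3 h with RLE size factors (-0.52, adjusted p = 0.0277). Called members numbered 3 of 8 and 5 of 8, against 53.4% and 81.9% of all genes. The share of higher calls among all genes at 1 to 1.5 h was 64.9%, but 47.7% with RLE size factors and 49.4% when library totals were used.

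Flag IntS11 WT lowered skl to 0.322 and 0.613 CPM at 1 to 1.5 h, 8.98-fold below the mislocalized line (-3.17 ± 0.29), and to 4.43 and 4.09 CPM at 2.5 to 3 h (-2.44 ± 0.15). These levels were slightly above those of wild type, whose libraries did not overlap at 2.5 to 3 h, and this was not tested. egr rose to 18.1 and 16.7 CPM and to 238 and 237 CPM (1.72 ± 0.11 and 4.25 ± 0.07), and Ark to 175 and 179 CPM at 2.5 to 3 h (1.20 ± 0.06). p53 fell by 0.52 ± 0.08 and rpr rose by 0.80 ± 0.20 at 2.5 to 3 h. Xrp1 fell by 0.82 ± 0.15 at that window, to 4.71 and 4.7 CPM. These levels of egr, Ark and Xrp1 at 2.5 to 3 h lay past those of wild type, where egr was at 185 and 191 CPM, Ark at 134 and 127 CPM and Xrp1 at 5.79 and 5.92 CPM. The libraries did not overlap, and Flag IntS11 WT was not tested against wild type. The smaller changes of Xrp1 (-0.58 ± 0.17, adjusted p = 0.0157) and Ark (0.17 ± 0.06, adjusted p = 0.0335) at 1 to 1.5 h were not stable. That of Xrp1 was lost with DESeq2 (adjusted p = 0.152), with only those groups fitted (adjusted p = 0.111), and without the first mislocalized or the second Flag replicate (adjusted p = 0.162 and 0.206). That of Ark was lost with only those groups fitted (adjusted p = 0.139) and without the first mislocalized or either Flag replicate (adjusted p = 0.378, 0.0758 and 0.0511). W at 2.5 to 3 h was not called (0.27 ± 0.13, adjusted p = 0.06), but was with RLE size factors (0.35, adjusted p = 0.0196), with only those groups fitted (0.27, adjusted p = 0.0376) and without the first mislocalized replicate (0.50, adjusted p = 0.00455). Called members numbered 4 of 8 and 6 of 8, against 24.2% and 78.4% of all genes. When only those groups were fitted, 2 were called at 1 to 1.5 h. At that window the share of higher calls among all genes moved from 42.2% to 67.1% with RLE size factors.

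Flag IntS11 E203Q carried the most inducer RNA of any embryo group. At 2.5 to 3 h the 4 inducers summed to 43.3 to 45.8 TPM, against 19.8 to 21.3 TPM in the mislocalized line, 9.54 to 10.3 TPM with Flag IntS11 WT and 6.25 to 7.43 TPM in wild type. skl was at 18.1 and 17.5 CPM at 1 to 1.5 h and at 42.7 and 48.2 CPM at 2.5 to 3 h, higher than in the mislocalized line by 2.07 ± 0.15 and 0.97 ± 0.11. Per length it led the 8 genes at 2.5 to 3 h, at 27.4 and 29.6 TPM, above p53 at 22.0 and 20.9 TPM. rpr, which mislocalization had not raised, was at 4.14 and 2.98 CPM at 1 to 1.5 h, against 0.449 and 0.594 CPM in the mislocalized line and 0.354 and 0.405 CPM in wild type. Its change from the mislocalized line was 2.73 ± 0.28 (6.65-fold), and 1.75 ± 0.17 at 2.5 to 3 h, where the libraries held 7.84 and 7.98 CPM. No other group of the same window and set overlapped these rpr levels.

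W and grim rose as well. W was at 11.9 and 14.4 CPM at 1 to 1.5 h, against 5.26 and 4.63 CPM (1.42 ± 0.15), and at 28.1 and 31.2 CPM at 2.5 to 3 h, against 14.2 and 10.6 CPM (1.26 ± 0.12). grim was at 0.561 and 0.558 CPM at 1 to 1.5 h and at 1.72 and 1.71 CPM at 2.5 to 3 h, and its rises were 2.11 ± 0.74 (adjusted p = 0.025) and 1.64 ± 0.40 (adjusted p = 0.00121). DESeq2 called neither (adjusted p = 0.111 and 0.0688). The first was lost without either E203Q replicate (adjusted p = 0.0756 and 0.0822) or the second mislocalized replicate (1.10, adjusted p = 0.264), and was 6.12 without the first, which left an arm at 0 counts. Xrp1 was at 14.0 and 12.3 CPM and at 17.9 and 18.6 CPM, higher by 1.34 ± 0.14 and 1.13 ± 0.13. The Xrp1 levels at 2.5 to 3 h lay above all wild type, control and mislocalized embryo libraries except the wild type of the knockdown set.

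egr and Ark in E203Q embryos lay between the mislocalized line and Flag IntS11 WT at 2.5 to 3 h. egr was at 34.3 and 36.3 CPM, higher than in the mislocalized line by 1.5 ± 0.08 and lower than with Flag IntS11 WT by 6.73-fold (2.75 ± 0.06 for Flag WT minus E203Q). Ark was at 88.8 and 90.7 CPM (0.22 ± 0.06 above the mislocalized line, adjusted p = 0.00278). At 1 to 1.5 h egr stood at 13.3 and 12.5 CPM, higher than in the mislocalized line (1.29 ± 0.11) and below Flag IntS11 WT (0.43 ± 0.09 for Flag WT minus E203Q). p53 was not called against the mislocalized line at either window (-0.07 ± 0.08 and -0.09 ± 0.07, adjusted p = 0.444 and 0.283). Early zygotic markers summed to 1070 to 1090 CPM in E203Q embryos at 2.5 to 3 h, between the 293 to 306 CPM of the mislocalized line and the 2800 to 2880 CPM with Flag IntS11 WT. At 1 to 1.5 h they summed to 290 to 306 CPM with E203Q. That was above the 20.5 to 24.8 CPM of the mislocalized line and the 244 to 246 CPM with Flag IntS11 WT. The part of these markers in the E203Q values was not tested. Against the mislocalized line, 6 of 8 members at 1 to 1.5 h and 7 of 8 at 2.5 to 3 h were called, all of them higher. Over all genes 43.7% and 53.5% were called, and 17.2% and 25.5% were called higher. The median changes of the 8 were 1.38 and 1.20, and those of all genes -0.06 and 0.00. The share of higher calls among all genes at 1 to 1.5 h was 39.4%, but 49.8% with RLE size factors and 67.8% when library totals were used.

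The 2 Flag lines, which carry the same tag and differ by the E203Q substitution as the labels name it, were compared directly. skl was 37.8-fold lower with Flag IntS11 WT at 1 to 1.5 h and 10.6-fold lower at 2.5 to 3 h (log2 -5.24 ± 0.23 and -3.41 ± 0.14). The log2 changes were -3.13 ± 0.30 and -0.95 ± 0.17 for rpr, -1.82 ± 0.16 and -0.98 ± 0.12 for W, and -1.92 ± 0.15 and -1.95 ± 0.14 for Xrp1. grim had 1 count with Flag IntS11 WT and 17 with E203Q at 1 to 1.5 h, a ratio of 0.0592 (0.00142 to 0.378), and changed by -1.95 ± 0.45 at 2.5 to 3 h. p53 changed by -0.42 ± 0.08 at 2.5 to 3 h, and Ark and egr were higher there by 0.98 ± 0.06 and 2.75 ± 0.06. Ark at 1 to 1.5 h was higher by 0.24 ± 0.06 (adjusted p = 0.00229), a call lost with total counts (0.14, adjusted p = 0.0727) and when only those groups were fitted (0.18, adjusted p = 0.129). Called members numbered 7 of 8 and 8 of 8, against 45.7% and 75.1% of all genes, with medians of -1.87 and -0.97 against 0.04 and 0.00. Among all genes the share of higher calls at 1 to 1.5 h was 57.5%, but 32.6% with total counts.

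**Figure D4:**
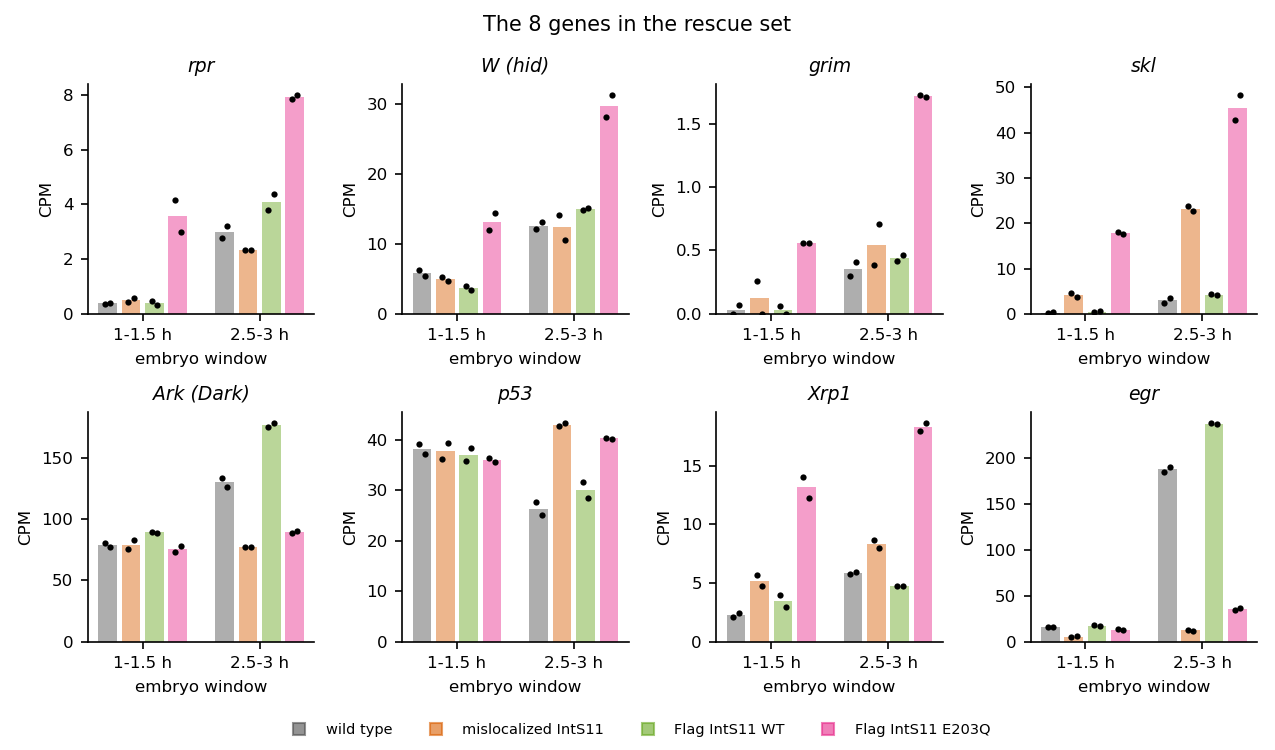
Levels of the 8 genes in CPM in the rescue experiment at 1 to 1.5 and 2.5 to 3 h, with bars for the mean of 2 libraries and dots for the libraries of wild type, mislocalized IntS11, Flag IntS11 WT and Flag IntS11 E203Q. The inducers and Xrp1 are highest with E203Q, skl at 42.71 and 48.19 CPM at 2.5 to 3 h, while egr is highest with Flag IntS11 WT at 237.9 and 236.8 CPM.

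Larvae differed from embryos most in Xrp1, which was the most abundant of the 8 genes at each age, and in which mutants exceeded wild type from 48 h. At 24 h Xrp1 stood at 69.8 and 77.9 TPM in wild type, ahead of egr at 8.12 and 7.43 TPM. Mutants were not called different at 24 h (302 and 314 CPM against 296 and 308 CPM, 0.03 ± 0.06, adjusted p = 0.87). At 48 h mutants were at 600 and 670 CPM and wild type at 485 and 477 CPM (0.40 ± 0.06, adjusted p = 2.57e-05). At 72 h mutants were at 571 and 520 CPM and wild type at 378 and 384 CPM (0.52 ± 0.06, adjusted p = 1.72e-07). The groups did not overlap at 48 or 72 h.

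egr was higher in 72 h mutants, at 40.4 and 42.2 CPM against 31.6 and 30.5 CPM (0.41 ± 0.08, adjusted p = 9.74e-05), and not called earlier (-0.02 ± 0.09 and -0.10 ± 0.10). In deposited TPM egr at 48 h was higher in mutants, at 9.0 to 9.31 against 8.24 to 8.38, which was not tested. rpr was higher in 72 h mutants, at 1.63 and 1.08 CPM against 0.380 and 0.540 CPM (1.57 ± 0.41, adjusted p = 0.00261), but that call was lost with DESeq2 (1.59, adjusted p = 0.0638) and without the first mutant replicate (1.23, adjusted p = 0.0646). W was called higher at 48 h (1.73 ± 0.43, adjusted p = 0.00455) on 1 library: mutants were at 4.50 and 1.33 CPM and wild type at 0.968 and 0.835 CPM, and without the first mutant replicate the change was 0.55 (adjusted p = 0.633). Without that same library skl, which was at 0 and 1.77 CPM in the 48 h mutants, was called higher (2.14, adjusted p = 0.0433), whereas with both it was not (1.03 ± 0.88, adjusted p = 0.42). Deposited TPM of W, which was not tested, was higher in mutants without overlap at each age. It was at 0.28 to 0.38 against 0.18 to 0.23 at 24 h and at 0.36 to 1.05 against 0.14 to 0.18 at 48 h. At 72 h it was at 0.33 to 0.4 against 0.15 to 0.23. grim did not pass the filter, with at most 5 counts in any larval group.

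p53 was not called at any larval age (0.09 ± 0.12, 0.34 ± 0.16 and 0.06 ± 0.12, adjusted p = 0.758, 0.165 and 0.694). Its deposited TPM, which was not tested, lay higher in mutants at each age. It was at 6.24 to 7.49 against 5.59 to 5.74 TPM at 24 h and at 3.56 to 4.83 against 2.58 to 2.66 TPM at 48 h. At 72 h it was at 3.23 to 3.36 against 2.32 to 2.61 TPM. In CPM Ark was lower in each mutant library than in each wild type library at 24, 48 and 72 h. It was not called (-0.10 ± 0.07, -0.21 ± 0.08 and -0.11 ± 0.07, adjusted p = 0.486, 0.0526 and 0.189). It was called at 48 h with RLE size factors (-0.22, adjusted p = 0.046) and at 72 h with total counts (-0.20, adjusted p = 0.019). In deposited TPM Ark overlapped at 24 h and was higher in mutants later. It was at 4.73 to 4.83 against 4.67 TPM at 48 h and at 2.61 to 2.68 against 2.26 to 2.47 TPM at 72 h. The direction of Ark in larvae therefore depends on the scale, as does that of egr at 48 h. Called members numbered 0, 2 and 3 of 7, against 9.97%, 29.8% and 57.2% of all genes, with medians of 0.01, 0.34 and 0.39. At 24 h 0 members had an unadjusted p below 0.05, and DESeq2 called 0. The 3 at 72 h were all higher, as were 26.6% of all genes. Markers moved with genotype beside these values: feeding markers summed to 2630 to 2760 CPM in 48 h mutants against 3950 to 3980 CPM, and to 2070 to 2140 CPM against 3490 to 3670 CPM at 72 h. Eggshell and yolk markers, led by the yolk protein genes Yp1 and Yp2, summed to 729 to 964 CPM in 48 h mutants against 22.4 to 22.8 CPM. At 72 h the 12 markers of older embryos, which larvae also express, summed to 26500 to 28500 CPM in mutants against 15300 to 16100 CPM. The part of these in the larval results was not tested.

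**Figure D5:**
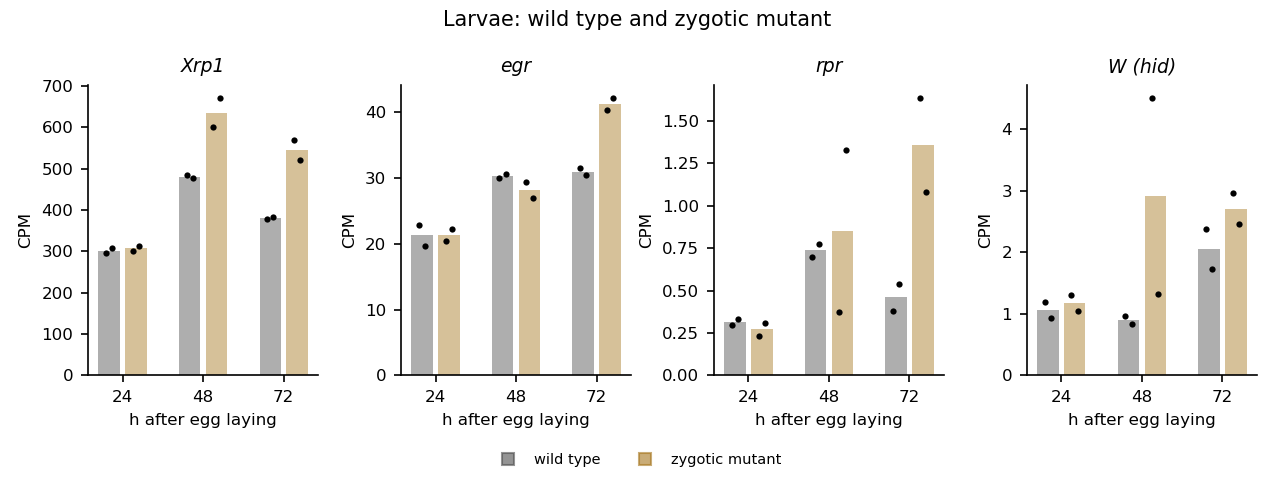
Levels of Xrp1, egr, rpr and W in CPM in larvae at 24, 48 and 72 h after egg laying, with bars for the mean of 2 libraries and dots for the libraries, wild type and zygotic mutant. Xrp1 is higher in mutants at 48 h (600.4 and 670 CPM) and 72 h, while W at 48 h rests on 1 high mutant library at 4.495 CPM.

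The partners of the 8 genes were read from 7 short lists. Of the caspase inhibitors, Diap1 was followed by name as a direct target of the inducers. It fell at 2.5 to 3 h with mislocalized IntS11 from 195 to 45.3 CPM (-2.11 ± 0.08). It changed by -1.94 ± 0.06 with mislocalized IntS9, -1.48 ± 0.11 in the knockdown and -1.20 ± 0.05 in the rescue set, while Flag IntS11 WT raised it over the mislocalized line by 1.5 ± 0.05. Under alpha-amanitin it was higher by 0.41, and in 72 h mutant larvae by 0.60. Of the 4 caspase inhibitors, 2 rose and 2 fell at that window with mislocalized IntS11, and 3 rose and 1 fell with mislocalized IntS9. Of the caspases tested there, 2 of 5 rose and 2 fell with mislocalized IntS11, and 3 of 5 rose and 2 fell with mislocalized IntS9. Over all genes 83.3% and 83.4% were called in these comparisons, so that such shares are near the background. Strica, an initiator-like caspase, rose by 1.56 and 2.24, and the effector caspase gene Dcp-1 changed by -1.35 and -0.90. Median changes of the caspases in 72 h mutant larvae were 0.29, with 4 of 7 higher and none lower, where 57.2% of all genes were called and 26.6% were higher.

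Debcl, a Bcl-2 family member, was higher at 2.5 to 3 h with mislocalized IntS11 (1.51), mislocalized IntS9 (2.08), the knockdown (3.08) and alpha-amanitin (3.84). It was lower with Flag IntS11 WT than in the mislocalized line (-2.01). Of the 8 genes of the DNA damage checkpoint, 5 were higher and 2 lower with mislocalized IntS11 at that window (median 0.42, all genes -0.38). With mislocalized IntS9 4 were higher and 2 lower (0.16, all genes -0.02). In the knockdown 7 were higher (1.24, all genes 0.07), as were 7 under alpha-amanitin (1.48, all genes -0.23). Over all genes 83.3%, 83.4%, 75.7% and 89.7% were called in the same order. lok, the fly Chk2 kinase that activates p53, was higher by 1.21 with mislocalized IntS9, 2.52 in the knockdown, 2.45 under alpha-amanitin and 1.62 in the rescue set. The 6 maternal germline genes summed at that window to 4900 to 4990 CPM under alpha-amanitin and 794 to 873 CPM in its controls. They summed to 1850 to 2100 CPM in the knockdown and 711 CPM in its wild type. Their part in these differences was not tested. With E203Q none of the 8 checkpoint genes rose and 6 fell against the mislocalized line, in both windows (medians -0.24 and -0.34). There 43.7% and 53.5% of all genes were called.

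The 4 genes named as p53-dependent in irradiated flies (Ku80, Irbp, RnrL and Corp) did not move as 1 group. Of these 1 rose and 3 fell at 2.5 to 3 h with mislocalized IntS11, and the same counts held with mislocalized IntS9. The shares of all genes called there were 83.3% and 83.4%, so these counts are near the background. RnrL, the large ribonucleotide reductase subunit, rose by 1.33 and 1.25 in these comparisons. Ku80, a DNA end-joining factor, fell by 2.82 and 2.84. Corp, a negative regulator of p53, was higher with E203Q than in the mislocalized line by 0.64 and 1.03. In 72 h mutant larvae 3 of 4 rose, Irbp by 1.21, Ku80 by 0.89 and RnrL by 0.74, against 26.6% of all genes higher.

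Of the 5 partners of Xrp1 in stress translation, 2, 3 and 4 rose and none fell with mislocalized IntS11 over the windows, the last with a median of 0.64, and 5 of 5 rose with mislocalized IntS9 at 2.5 to 3 h (median 0.61). Over all genes 31.7%, 47.3% and 83.3% were called with mislocalized IntS11, and 83.4% with mislocalized IntS9 in the last window. Thor, which encodes the translation inhibitor 4E-BP, rose with mislocalized IntS9 by 2.66, 2.01 and 0.61. In mutant larvae 2 rose and 2 fell at 48 h and 3 rose and 1 fell at 72 h (29.8% and 57.2% of all genes called), where Irbp18, which encodes the dimer partner of Xrp1, was higher by 1.13 and 0.67.

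In the TNF and JNK pathway, the counts went both ways. In the last embryo window 5 of 14 rose and 7 fell with mislocalized IntS11 (median -0.21, all genes -0.38), 7 of 15 rose and 6 fell with mislocalized IntS9, and 4 of 15 rose and 7 fell in the knockdown, against 83.3%, 83.4% and 75.7% of all genes called. grnd, which encodes an Eiger receptor, was lower with mislocalized IntS11 (-6.02 ± 0.23) and in the rescue set (-5.79), and was higher with Flag IntS11 WT (6.04) and E203Q (3.18) than in the mislocalized line. Jra and bsk, the fly Jun and JNK, changed by -3.61 and -3.60 with mislocalized IntS11. The Fos gene kay rose with mislocalized IntS9 by 1.67 at 0 to 0.5 h and 1.55 at 1 to 1.5 h. In 72 h mutant larvae, where egr was higher, 9 of 15 rose and 1 fell (median 0.22, all genes -0.05, with 57.2% of all genes called and 26.6% higher), Traf4 by 1.12, Jra by 0.92 and msn, a JNK kinase kinase kinase kinase, by 0.77.

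Likeness was measured as Pearson's r of log2(CPM + 0.5) over the 30 embryo group means and 9008 genes, as a description, since the groups share sets, ages and depth. The profile of egr was most like those of Sep5 and Keap1 (r = 0.984 for both) and Lac (0.975). That of Ark was most like dnt (0.971), sfl (0.960) and MED23 (0.959). The skl profile was most like Rcd2 (0.945), Fmo-2 (0.932) and TkR86C (0.925), and that of p53 most like Atg16 (0.926), GlcAT-I (0.917) and nmd (0.910). For rpr the nearest were Or71a (0.958), gcm (0.955) and Ance-2 (0.950), for W sm (0.912), yuri (0.884) and stl (0.868), and for Xrp1 sda and form3 (0.898 for both) and Vmat (0.892). grim was below the minimum level for this measure. Between the members, r was 0.920 for Ark and egr, 0.799 for rpr and egr, 0.725 for W and skl and -0.514 for p53 and egr.

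The 4 protein-coding genes of the 3L cluster that are not death inducers, CG7320, CheA75a, CG5103 and CG13700, were at or near 0 in embryos. At such levels they tell little about whether the rise of skl was shared. In larvae CG7320 was called higher in mutants at 48 and 72 h. The call at 48 h rests on 4 counts against 0, all in the same mutant library. At 72 h CG7320 was at 1.23 CPM on average against 0.146 CPM.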

How the data were processed

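Total RNA of staged embryos and larvae was taken up in TRIzol, rRNA was removed and a kit that keeps the strand made the libraries, per the labels' protocols. Trimming with Trimmomatic 0.39, the aligner STAR 2.7.10a, the quantifier RSEM 1.3.1, the R package DESeq2 1.40.2 and the dm6 build are listed, per the submitters' processing notes. The deposited expected counts are the authors' RSEM estimates per gene, which are not normalized, and they were rounded to whole numbers. The deposited TPM values, which the authors scaled for transcript length and depth, were used for levels between genes, and the deposited FPKM were not used. Of 16680 gene names, 16449 matched the RefSeq gene table of dm6, which gave the coordinates.

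Each of the 6 experiments was fitted alone with edgeR 4.0.16 (limma 3.58.1, R 4.3.3): TMM scaling, filterByExpr, group means and the robust quasi-likelihood test, with p-values adjusted by Benjamini and Hochberg over all genes tested and a threshold of 0.05. The test is two-sided, and n is 2 libraries per group throughout. CPM are counts per TMM-adjusted library size, log2 changes are edgeR's, and each SE was taken as the size of the log2 change divided by the root of its F statistic. Joint fits of a pair of experiments tested differences between sets. Ratios of few counts carry exact 95% intervals, and a group at 0 was set to 3 counts. Both cover counting error only. As alternatives, each library was left out in turn, the replicate number was added as a block, only the compared groups were fitted, the filter was dropped, DESeq2 1.42.0 was used, or TMM was replaced by RLE size factors or by library totals (called total counts). The edgeR step was run on simulated data with few changed genes, all of them well expressed. These settings do not cover genes of few counts or comparisons in which most genes were called. Tables and figures used Python 3.11.15, pandas 2.3.3 and matplotlib 3.10.9.

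The 8 genes were followed in every comparison, but the text does not give a value for each gene in each comparison. A value left out does not mean that the gene was unchanged. Other list genes are named where they were called, were among the 3 largest changes of their list and had a mean of at least 5 CPM in an arm. Diap1 is followed by name as a direct target of the inducers. Likeness was measured for members with at least 1 CPM in at least 4 of 30 embryo groups, naming the 3 genes of highest r. The members and lists were chosen with earlier results of these data known. No sequences are shown.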

Additional observations from a re-analysis of the deposited data

Results flagged for a closer look

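The changes of 18 gene and window pairs differed between a pair of experiments by edgeR's test of the difference itself. Each experiment had its own wild type, and line and set cannot be told apart. All differences below are on the log2 scale with adjusted p over all genes.

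Mislocalized IntS9 was set against mislocalized IntS11. In the first window, 0 to 0.5 h, the change of skl was larger with IntS9 by 2.50 (adjusted p = 0.0483) and that of W by 1.70 (0.000277), and the changes of Xrp1 and Ark were lower, with differences of -1.09 (0.0418) and -0.34 (0.0129). The skl difference was lost without the filter (adjusted p = 0.0609) and without any of 6 libraries (0.0592 to 0.344), and was 3.27 without the second IntS9 wild type replicate. That of Xrp1 was lost with total counts (0.0573) and without any of 7 libraries (0.0564 to 0.159). The differences of W and Ark were called under every alternative run.

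In the second window, 1 to 1.5 h, the difference was 2.30 for skl (adjusted p = 5.32e-05), 0.73 for p53 (5.66e-05) and -0.91 for Xrp1 (0.0256). The first 2 were called under every alternative, and that of Xrp1 was lost without any of 3 libraries (0.0519 to 0.14).

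In the third window, 2.5 to 3 h, the difference was 1.15 for skl (adjusted p = 0.00211), -3.0 for rpr (3.5e-05) and -0.68 for egr (0.000195), each called under every alternative. For Xrp1 it was -0.85 (0.0173), lost without any of 4 libraries (0.0722 to 0.166). The fitted difference of -5.73 for grim (0.0133) involves a group at 0 counts, so it depends on the prior count and is no bound, and its call was lost without any of 3 libraries (0.0543 to 0.0585).

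The rescue set was set against the first IntS11 set. For W at 1 to 1.5 h the difference was -1.53 (adjusted p = 5.09e-05), called under every alternative. skl differed by 1.67 (0.0211), or 2.98 without the second wild type replicate of the rescue set, and its call was lost without either of 2 libraries (0.0539 and 0.192). egr differed by -0.56 (0.00971) and p53 by 0.35 (0.0243), lost without any of 3 libraries (0.0555 to 0.131) and 4 libraries (0.0777 to 0.126).

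For the last window the rescue set differed by 0.22 for Ark (adjusted p = 0.0467) and -0.33 for p53 (0.0345). The Ark difference was lost without the filter (0.245), with the replicate block (0.0516) and without any of 4 libraries (0.102 to 0.18). The p53 difference was lost with RLE size factors (0.0617), total counts (0.059), no filter (0.0501) and without any of 5 libraries (0.066 to 0.202).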

How the results depend on the processing

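No called value of the 8 genes changed its direction under any alternative fit. In mean deposited TPM, a scale compared after the data were seen, 6 of 141 calls went the other way. The count of called members moved by more than the tolerated factor in these cases. With mislocalized IntS11 at 2.5 to 3 h DESeq2 called 4 in place of 7. In the knockdown at 1 to 1.5 h total counts and the fit of only the groups compared each called 5 in place of 3. Under alpha-amanitin at 1 to 1.5 h no filter and the replicate block each called 2 in place of 1. For Flag IntS11 WT against the mislocalized line at 1 to 1.5 h the fit of only those groups called 2 in place of 4. For the rescue set against the first set at 2.5 to 3 h RLE size factors, total counts and the replicate block each called 1 and no filter 0, in place of 2. The cause was not tested.

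Leaving out each library in turn gave 3 to 5 called members in the knockdown at 2.5 to 3 h, 0 to 1 under alpha-amanitin at 1 to 1.5 h and 2 to 4 for Flag IntS11 WT at 1 to 1.5 h. The tests between IntS9 and IntS11 gave 2 to 3, 2 to 5 and 3 to 6 over the windows, in place of 4, 3 and 5. Those of the rescue set gave 2 to 4 and 0 to 2, in place of 4 and 2. A lone library was assumed to vary like the other groups. Of 1190 such gene values, 76 lost their call and 16 gained one. DESeq2 lost 13 of 217 and gained 1.

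The replicate numbers were not taken to pair the libraries. Correlations of deviations between groups ran from -0.516 to 0.274 in the knockdown set and from -0.219 to 0.68 in the IntS11 set, and in no experiment did all pairs of groups exceed 0.1. In the IntS11 set 6 of 15 pairs did, and in the rescue set 7 of 28, with a highest value of 0.479, so some same-numbered libraries deviated together. The replicate block changed no other count beyond those given, and of 259 gene values it lost 1 call and gained 2.

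Depth limits the low genes. grim, rpr and skl rest on few counts in early wild type embryos, and the knockdown set's wild type libraries were the shallowest, so changes there were often not detectable at this depth.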
